A study of Mus musculus with 35 samples.

Results

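Transcripts of 7 genes of the Eph receptor family, *Epha2*, *Epha3*, *Epha4*, *Epha7*, *Ephb2*, *Ephb4* and *Ephb6*, were followed across 35 RNA-seq libraries of mouse bone marrow cells, out of 49671 gene rows in the count table. The 7 members were taken by symbol, and 6 of them passed the filter on low counts, as did 17166 genes in all, *Ephb4* being the one left out. Among them, *Epha3* was chosen by its measured rise in cells expressing G-NHX9-21FGAA, a contrast of these same libraries. Its levels against the Empty control and in every comparison with G-NHX9-21FGAA are therefore given as a description without a test.

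The cells were lineage-negative hematopoietic stem and progenitor cells from male and female C57Bl/6 mice, transduced with lentivirus, sorted for the vector's fluorescent markers and grown for 1 week in methylcellulose medium with 10 ng/mL GM-CSF. The 7 groups held 5 libraries each, and every group was handled this way, including Empty, which carried the vector marker alone. G-NHX9 is NUP98-HOXA9, a leukemia fusion of the phenylalanine-glycine (FG) repeat domain of a nucleoporin with the DNA-binding homeodomain of HOXA9, tagged with mEGFP. In G-NHX9-8FA, 8 phenylalanines were replaced by alanine, in G-NHX9-21FGAA, 21 FG pairs were replaced by a pair of alanines, G-NHX9-midi kept only the C-terminal stretch of the FG domain, G-NHX9-midi-21FGAA joined both changes, and G-NHX9-DDNA carried a homeodomain mutated to weaken DNA binding. The fusion was expressed from a vector in a mixed, sorted culture rather than from the rearranged locus. Donor mice were 8 weeks old except for Empty replicate 4 (9 weeks), Empty replicate 5 (10 weeks) and G-NHX9 replicate 1 (11 weeks). Beyond these ages, which set a few replicates apart by donor, nothing in the labels ties replicates to separate animals. The methods describe transductions in triplicate, fewer than the libraries of a group, so some libraries may share a transduction. The SDs and p-values therefore measure only the spread between these samples.

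Eph receptors are receptor tyrosine kinases that read ephrins, ligands held on the surface of neighboring cells. A-type receptors mostly bind ephrin-A proteins, which are anchored by a lipid, and B-type receptors mostly bind the transmembrane ephrin-B proteins. Binding signals into both cells and controls adhesion, repulsion and cell position, chiefly by way of the cytoskeleton. In bone marrow the family is best known for contacts between blood cells, vessels and stroma.

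Libraries held between 31559914 and 75810659 counted reads, and levels are given as counts per 1000000 reads (CPM) after TMM scaling, so that 3 counts corresponded to between 0.0382 and 0.0996 CPM. Markers of myeloid lineages were abundant. Summed neutrophil markers lay between 5602 and 34610 CPM and summed stem and progenitor markers between 375 and 1011 CPM. *Kit* and *Cd34* were detected in every group. A lymphoid list of 8 genes summed to 6.75 to 15.7 CPM in Empty and 3.73 to 10.9 in G-NHX9-midi. It summed to 19.6 to 25.8 CPM in G-NHX9-21FGAA and 16.2 to 32.0 in G-NHX9-DDNA. Of its 2 tested genes, 1 was higher than in Empty in G-NHX9-21FGAA and in G-NHX9-DDNA, and 1 lower in G-NHX9-midi. *Cd3e*, a gene of that list, averaged at most 0.0544 CPM in any group. In bulk RNA, fewer cells that express a gene and less of its RNA per cell cannot be told apart.

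The genes lie on 5 chromosomes of the mouse GRCm38 (mm10) assembly. *Epha3* spans chr16:63543534-63864175 on the minus strand and *Epha7* spans chr4:28813131-28967499 on the plus strand. *Ephb2* lies at chr4:136647539-136835988 (minus) and *Epha2* at chr4:141301240-141329384 (plus). *Epha4* lies at chr1:77367185-77515088 (minus), *Ephb4* at chr5:137350109-137378669 (plus) and *Ephb6* at chr6:41605482-41620509 (plus). *Epha3* encloses the small gene Gm22769 and *Epha4* the microRNA gene Mir6352 on the same strand, and Gm11915 and *Zan* overlap *Epha7* and *Ephb4* on the opposite strand. Counts in these overlaps are uncertain to that extent, since the strand setting of the counting is not given in the sources used here.

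The 250 bases before the RefSeq start of *Epha3* and of *Epha7* are shown (GRCm38.p6, each read on the gene's own strand). These genes had nearly opposite orders among the FG variants, and both were lower in G-NHX9-DDNA than in G-NHX9. Capitals mark AGATAA, the core read by GATA factors, or TAAT, the core read by many homeodomains, on either strand.

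*Epha3*, chr16:63864176-63864425, minus strand: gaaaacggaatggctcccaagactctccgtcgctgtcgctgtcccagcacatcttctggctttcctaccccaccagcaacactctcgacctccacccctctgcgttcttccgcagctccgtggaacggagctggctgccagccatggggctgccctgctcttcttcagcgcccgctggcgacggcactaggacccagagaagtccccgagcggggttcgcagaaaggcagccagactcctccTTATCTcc

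*Epha7*, chr4:28812881-28813130, plus strand: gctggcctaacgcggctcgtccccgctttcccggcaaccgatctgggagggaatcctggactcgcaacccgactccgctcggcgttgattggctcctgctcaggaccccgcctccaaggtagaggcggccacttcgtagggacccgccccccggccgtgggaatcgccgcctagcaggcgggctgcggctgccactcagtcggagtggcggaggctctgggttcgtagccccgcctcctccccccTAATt

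RefSeq gave 1 window for each member and a further one for *Epha7* at a start just downstream. Both strands of the 8 windows were searched for TAAT, TTTAT and TGATTTAT, of which TTTAT lies inside TGATTTAT, and AGATAA was added after the windows had been read. The *Epha3* window held none of the first 3 motifs and 1 AGATAA that begins 8 bases before the start. The *Epha7* window shown held 1 TAAT that begins 5 bases before the start, and its second window (chr4:28812895-28813144) held 2, which begin 19 and 11 bases before that start. Of 32851 promoter windows of this length, 54.9% held TAAT, 37.3% TTTAT, 0.837% TGATTTAT and 9.99% AGATAA. The windows shown for *Epha3* and *Epha7* held 16 and 25 CG dinucleotides, against a median of 6 per window. A match to these letters is a description of the sequence only.

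*Epha3*, an A-type receptor with high affinity for ephrin-A5, was close to undetected in Empty and most abundant in G-NHX9-21FGAA. In Empty the libraries read 0.552, 0.413, 0.0693, 0.0996 and 0.0612 CPM, which came from 23, 18, 3, 3 and 2 reads. In G-NHX9-21FGAA they read 9.68, 10.6, 7.63, 15.2 and 11.7 CPM, from 390 to 1078 reads. Every G-NHX9-21FGAA library thus stood above every Empty library, and 3 of the 5 Empty libraries were at or under 3 reads.

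The other groups ordered themselves between these ends. G-NHX9-midi-21FGAA libraries read 2.77, 3.003, 4.91, 6.12 and 5.08 CPM for *Epha3*, below all G-NHX9-21FGAA libraries and overlapping G-NHX9, which read 2.95, 2.56, 2.41, 1.90 and 3.36 CPM. G-NHX9-8FA read 1.19, 1.30, 1.51, 0.796 and 1.13 CPM and G-NHX9-DDNA 1.53, 1.33, 1.58, 0.880 and 0.336 CPM. G-NHX9-midi was the lowest of the fusions, at 0.917, 0.810, 0.839, 0.562 and 0.701 CPM, just above the highest Empty library. G-NHX9-8FA, G-NHX9-DDNA and G-NHX9-midi overlapped one another in this order, and G-NHX9-DDNA also overlapped Empty.

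The mean of *Epha3* was 0.239 ± 0.228 CPM in Empty, 2.63 ± 0.549 in G-NHX9, 4.38 ± 1.44 in G-NHX9-midi-21FGAA and 11.0 ± 2.79 in G-NHX9-21FGAA (SD, n = 5). On the fitted log2 scale the difference from Empty was 5.44 ± 0.41 (SE) for G-NHX9-21FGAA, 43.5-fold. It was 4.12 ± 0.40 for G-NHX9-midi-21FGAA, 3.38 ± 0.40 for G-NHX9, 2.24 ± 0.41 for G-NHX9-8FA, 2.17 ± 0.41 for G-NHX9-DDNA and 1.61 ± 0.42 for G-NHX9-midi. These values share the Empty libraries, and they rest on the reads of Empty replicates 1 and 2: without Empty replicate 1 the difference for G-NHX9-21FGAA was 6.01, and without Empty replicate 3 it was 5.21. The difference of G-NHX9-21FGAA from G-NHX9 was 2.06 ± 0.33, or 4.16-fold.

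**Figure D1:**
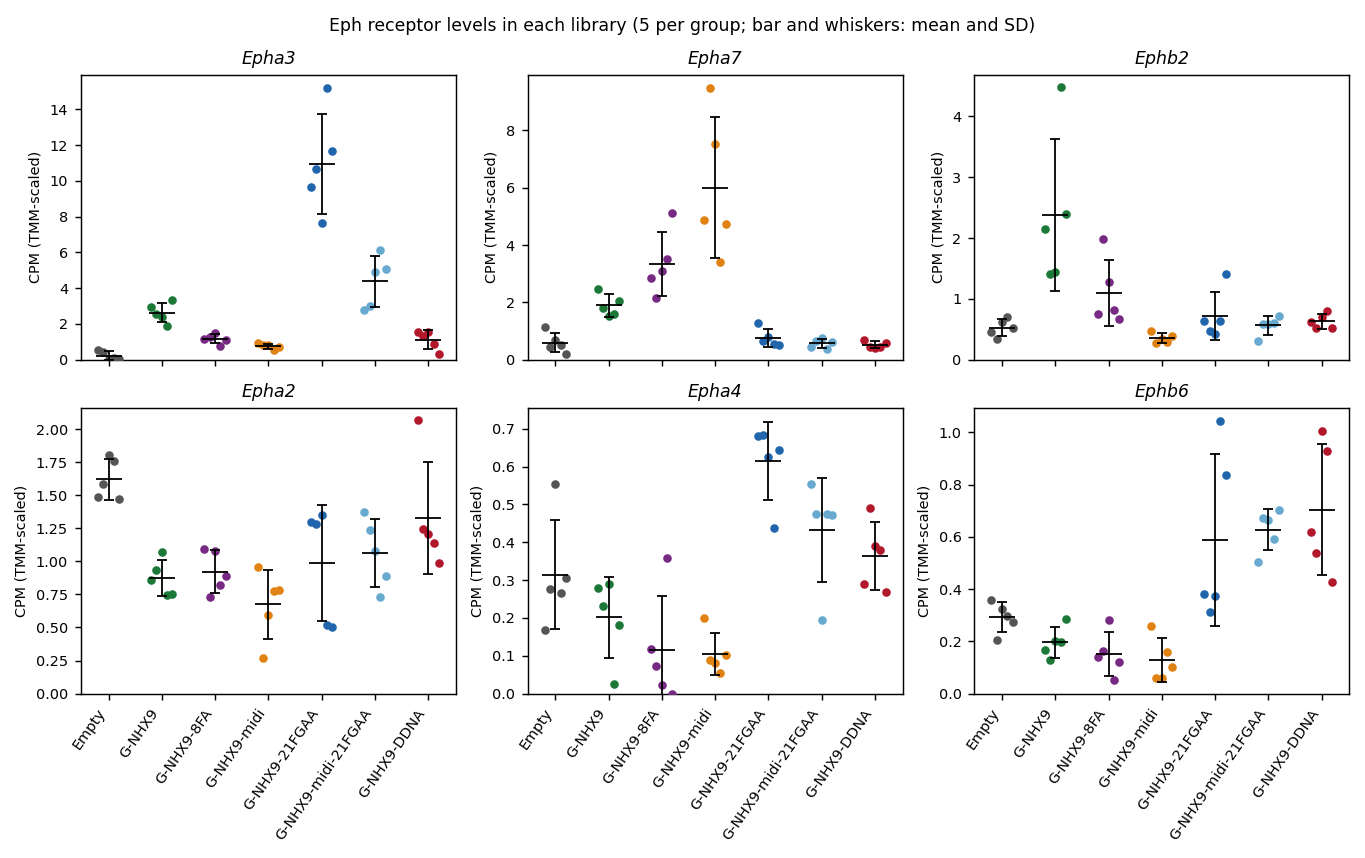
Level of 6 Eph receptors (y axis, CPM after TMM scaling, linear from 0) in each of 35 libraries (points) by group (x axis), with the mean and SD of the 5 libraries as bar and whiskers; a whisker that would pass below 0 is clipped at the axis. All 5 G-NHX9-21FGAA libraries lie above every other library for Epha3, all 5 G-NHX9-midi libraries lie above the Empty libraries for Epha7, and Ephb2 is highest in G-NHX9.

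Comparisons of *Epha3* that its selection did not use were tested with edgeR's quasi-likelihood test across all 17166 genes, with Benjamini-Hochberg adjusted p-values and a threshold of 0.05. *Epha3* was lower than in G-NHX9 in 5 of 5 libraries of each group tested. Its log2 fold change was -1.77 ± 0.35 in G-NHX9-midi (adjusted p = 0.00037), -1.21 ± 0.34 in G-NHX9-DDNA (adjusted p = 0.0087) and -1.14 ± 0.34 in G-NHX9-8FA (adjusted p = 0.021). The last of these calls was lost without G-NHX9 replicate 5 (log2 fold change -1.06, adjusted p = 0.0603) and without G-NHX9-8FA replicate 4 (-1.04, adjusted p = 0.0562). In the shortened construct, *Epha3* rose when the 21 FG pairs were replaced: G-NHX9-midi-21FGAA exceeded G-NHX9-midi by 2.51 ± 0.35 on the log2 scale (5.69-fold, adjusted p = 5.5e-07), with no overlap between the groups. That comparison shares no library with the one that picked the gene, but it concerns the same replacement.

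Stem and progenitor markers moved alongside *Epha3* in part. *Cd34*, a surface protein of progenitors, averaged 36.9 ± 9.25 CPM in Empty, 220 ± 12.9 in G-NHX9, 206 ± 27.7 in G-NHX9-21FGAA, 135 ± 39.6 in G-NHX9-midi-21FGAA and 55.8 ± 9.90 in G-NHX9-DDNA. The summed level of 13 such markers ranged from 396 to 513 CPM in Empty, 750 to 891 in G-NHX9, 714 to 996 in G-NHX9-21FGAA and 462 to 1011 in G-NHX9-midi-21FGAA, and 7, 7 and 4 of the 13 were higher than in Empty in the 3 fusion groups named. Among all genes the shares higher than in Empty were 16.9%, 14.7% and 9.59% in that order. G-NHX9 and G-NHX9-21FGAA therefore held similar summed levels while their *Epha3* means were 2.63 and 11.0 CPM. Single markers differed between these groups, so the sums do not show a like progenitor content. *Kit*, lower than Empty in G-NHX9, averaged 45.15 ± 16.6 CPM there, 170 ± 48.1 in G-NHX9-21FGAA and 83.4 ± 10.0 in Empty. *Ly6a* averaged 275 ± 35.3, 97.0 ± 18.5 and 116 ± 22.8 CPM in the same order. Of 8 genes on the endothelial list, 3 were higher and 1 lower than in Empty in G-NHX9-21FGAA, and their summed level ranged from 238 to 303 CPM against 202 to 234 CPM. Those higher were *Tek*, at 3.53 ± 1.93 CPM against 0.392 ± 0.196 in Empty, *Emcn*, at 0.812 ± 0.194 against 0.0107 ± 0.0149, and *Pecam1*, at 221 ± 16.3 against 163 ± 13.9, while *Kdr* was lower, at 30.1 ± 9.45 against 52.6 ± 14.9. Of the others on the list, *Cdh5* and *Cldn5* averaged 0.0359 and 0 CPM in G-NHX9-21FGAA, and *Flt4* and *Tie1* were not among the genes called. The summed endothelial list ranged from 219 to 292 CPM in G-NHX9-midi-21FGAA, with 3 genes higher and 1 lower than in Empty. In G-NHX9-DDNA, where *Epha3* averaged 1.13 CPM, the list ranged from 266 to 283 CPM, with 1 gene higher and 0 lower. The part of other cell types in the *Epha3* difference was not tested.

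*Epha7*, another A-type receptor, was highest where the FG motifs were kept and the FG domain was short. Its order was close to the reverse of that of *Epha3* only among the FG variants, since both genes were low in Empty and both were lower in G-NHX9-DDNA than in G-NHX9. Over all 35 libraries the correlation between them was near 0 (Pearson's r = -0.08, as a description). G-NHX9-midi libraries read 4.86, 9.48, 7.53, 3.40 and 4.74 CPM. G-NHX9-8FA read 2.84, 2.14, 3.09, 3.52 and 5.10 CPM, and G-NHX9 2.47, 1.82, 1.54, 1.58 and 2.06 CPM. Empty read 1.13, 0.436, 0.693, 0.531 and 0.214 CPM. Each of these 3 fusion groups lay wholly above Empty, whereas G-NHX9-21FGAA, at 1.28, 0.642, 0.802, 0.563 and 0.525 CPM, overlapped it. G-NHX9-midi-21FGAA ranged from 0.375 to 0.763 CPM and G-NHX9-DDNA from 0.410 to 0.703 CPM, also within the Empty range.

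Against Empty, the log2 fold change of *Epha7* was 3.30 ± 0.33 in G-NHX9-midi (9.82-fold, adjusted p = 1.2e-09), 2.45 ± 0.32 in G-NHX9-8FA (adjusted p = 6.9e-07) and 1.63 ± 0.32 in G-NHX9 (adjusted p = 0.00019). It was 0.32 ± 0.33 in G-NHX9-21FGAA, -0.08 ± 0.33 in G-NHX9-midi-21FGAA and -0.23 ± 0.34 in G-NHX9-DDNA, none past the threshold. All 3 calls held in 17 of 17 alternative settings. Within the fusions, *Epha7* was lower than in G-NHX9 by 1.31 ± 0.31 in G-NHX9-21FGAA (log2 fold change -1.31, adjusted p = 0.0025) and by 1.86 ± 0.32 in G-NHX9-DDNA (-1.86, adjusted p = 5.5e-05). It was higher by 1.66 ± 0.30 in G-NHX9-midi (adjusted p = 0.00011). The replacement of 21 FG pairs in the midi construct lowered it by 10.4-fold (log2 fold change -3.38 ± 0.32, adjusted p = 3.7e-10). G-NHX9-8FA was above G-NHX9 by 0.81 ± 0.30 in 4 of 5 libraries, short of the threshold (adjusted p = 0.062), although DESeq2 gave 0.80 (adjusted p = 0.0425) and the test without G-NHX9-8FA replicate 2 gave 0.94 (adjusted p = 0.0445).

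*Ephb2*, a B-type receptor that can also bind ephrin-A5, was highest in G-NHX9 itself. G-NHX9 libraries read 2.14, 1.42, 1.45, 4.48 and 2.39 CPM against 0.456, 0.344, 0.624, 0.697 and 0.520 CPM in Empty, with no overlap. G-NHX9-8FA read 0.746, 1.98, 1.27, 0.822 and 0.672 CPM, of which 4 of 5 stood above every Empty library. G-NHX9-midi was the lowest group, at 0.478, 0.270, 0.348, 0.294 and 0.391 CPM. The other 3 groups lay largely within the Empty range: G-NHX9-21FGAA from 0.431 to 1.41 CPM, G-NHX9-midi-21FGAA from 0.313 to 0.726 CPM and G-NHX9-DDNA from 0.515 to 0.808 CPM.

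Against Empty, *Ephb2* rose by 2.17 ± 0.34 on the log2 scale in G-NHX9 (4.51-fold, adjusted p = 6.7e-06) and by 1.08 ± 0.34 in G-NHX9-8FA (adjusted p = 0.017). The second call was lost without G-NHX9-8FA replicate 2 (log2 fold change 0.74, adjusted p = 0.115) and without Empty replicate 2 (0.93, adjusted p = 0.0572). Each of the 4 constructs compared with G-NHX9 held less *Ephb2*. The log2 fold change from G-NHX9 was -2.71 ± 0.35 in G-NHX9-midi (adjusted p = 5.5e-07), -1.91 ± 0.33 in G-NHX9-DDNA (adjusted p = 4.6e-05), -1.74 ± 0.32 in G-NHX9-21FGAA (adjusted p = 0.00016) and -1.10 ± 0.32 in G-NHX9-8FA (adjusted p = 0.017). The last was lost without G-NHX9 replicate 4, the highest library (log2 fold change -0.75, adjusted p = 0.112), without G-NHX9-8FA replicate 1 (adjusted p = 0.0515) and in a fit of those groups alone (-1.12, adjusted p = 0.085).

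*Thy1*, a surface protein on the stromal list that blood progenitors and T cells also make, was highest in the same group, at 209 ± 64.2 CPM in G-NHX9 and 15.8 ± 7.38 CPM in Empty. The summed stromal list ranged from 197 to 381 CPM in G-NHX9 and from 11.7 to 33.7 CPM in Empty. It was also above the Empty range in G-NHX9-8FA, at 53.4 to 121 CPM (3 genes higher, 1 lower). In G-NHX9-midi, the group lowest in *Ephb2*, it ranged from 66.9 to 185 CPM (3 higher, 2 lower). Of the 10 genes, 3 were higher in G-NHX9 than in Empty and 1 lower, beside 16.9% higher and 15.2% lower among all genes. Besides *Thy1*, the higher ones were *Lepr*, at 54.2 ± 8.23 CPM against 3.68 ± 1.26 in Empty, and *Pdgfrb*, at 8.60 ± 4.58 against 0.882 ± 0.330. Of the others, *Col1a1* averaged 0.320 and 0.298 CPM and *Pdgfra*, the lower one, 0.228 and 1.27 CPM in G-NHX9 and Empty, and *Col3a1*, *Cxcl12*, *Dcn* and *Lum* had at most 3 reads in each G-NHX9 library. The part of stromal cells in the *Ephb2* difference was not tested beyond these values.

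*Epha2*, a receptor for ephrin-A1 best known from epithelia, was highest in Empty and lower in the fusions. Empty libraries read 1.49, 1.58, 1.80, 1.76 and 1.47 CPM. G-NHX9-midi read 0.957, 0.270, 0.593, 0.776 and 0.783 CPM, and G-NHX9 0.862, 0.931, 1.07, 0.742 and 0.754 CPM. G-NHX9-21FGAA was split, with 1.30, 1.28 and 1.35 CPM in replicates 1 to 3 and 0.521 and 0.501 CPM in replicates 4 and 5. All libraries of G-NHX9, G-NHX9-8FA, G-NHX9-midi, G-NHX9-21FGAA and G-NHX9-midi-21FGAA lay below every Empty library, and 4 of 5 G-NHX9-DDNA libraries did.

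The log2 fold change of *Epha2* from Empty was -1.24 ± 0.27 in G-NHX9-midi (adjusted p = 0.00044), -0.89 ± 0.27 in G-NHX9 (adjusted p = 0.011), -0.81 ± 0.27 in G-NHX9-8FA (adjusted p = 0.024) and -0.71 ± 0.27 in G-NHX9-21FGAA (adjusted p = 0.044). The G-NHX9-21FGAA call held in 7 of 17 alternatives, over which the value ranged from -0.85 to -0.53, and it was lost on leaving out any one of the 5 Empty libraries or G-NHX9-21FGAA replicate 4 or 5, without TMM, with no filter and in a fit of those groups alone. The G-NHX9-8FA call was lost without G-NHX9-8FA replicate 2 (-0.75, adjusted p = 0.0545). G-NHX9-midi-21FGAA differed by -0.61 ± 0.26 (adjusted p = 0.11), and a block for the replicate number, fitted because same-numbered libraries deviated together in this pair of groups, gave -0.63 ± 0.233 (adjusted p = 0.0440). In G-NHX9-DDNA the value was -0.28 ± 0.26 (adjusted p = 0.51).

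*Epha4*, a receptor that binds both ephrin classes, and *Ephb6*, a family member whose kinase domain is inactive, were lowest in G-NHX9-8FA and G-NHX9-midi. For *Epha4*, Empty read 0.168, 0.276, 0.555, 0.266 and 0.306 CPM, G-NHX9-midi 0.199, 0.0900, 0.0818, 0.0535 and 0.103 CPM, and G-NHX9-21FGAA 0.680, 0.683, 0.626, 0.437 and 0.645 CPM. For *Ephb6*, Empty read 0.360, 0.207, 0.324, 0.299 and 0.276 CPM, G-NHX9-midi 0.259, 0.0600, 0.0614, 0.161 and 0.103 CPM, and G-NHX9-DDNA 0.620, 0.538, 1.00, 0.927 and 0.426 CPM. These are low levels, of 0 to 37 reads a library for *Epha4* and 2 to 74 for *Ephb6*. At 10 reads in the library of median size, 0.22 CPM, each was reached by 22 of 35 libraries, and by all 5 libraries in only 2 groups for *Epha4* and 3 for *Ephb6*.

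*Epha4* fell against Empty in G-NHX9-midi (log2 fold change -1.52 ± 0.51, adjusted p = 0.017) and in G-NHX9-8FA (-1.46 ± 0.51, adjusted p = 0.033). The first call was lost without Empty replicate 3 (-1.20, adjusted p = 0.0817). The second held in 10 of 16 alternatives and was lost without Empty replicate 3 (-1.15, adjusted p = 0.131) in a fit of those groups alone (-1.46, adjusted p = 0.126) and without G-NHX9-8FA replicate 1, 2, 3 or 5 (-1.49 to -1.20). Without G-NHX9-8FA replicate 4, the highest library, it was -2.46. In G-NHX9-21FGAA, *Epha4* stood above Empty by 0.95 ± 0.43, short of the threshold (adjusted p = 0.10) but past it without TMM (1.14), without Empty replicate 3 (1.29) and in a fit of those groups alone (0.97). It stood above G-NHX9 by 1.60 ± 0.45 (adjusted p = 0.011, no overlap). The replacement of 21 FG pairs in the midi construct raised it by 1.97 ± 0.49 (adjusted p = 0.0014), in 4 of 5 libraries above every G-NHX9-midi library.

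*Ephb6* rose against Empty in the 3 groups where *Epha7* did not. Its log2 fold change was 1.26 ± 0.35 in G-NHX9-DDNA (adjusted p = 0.013), 1.10 ± 0.35 in G-NHX9-midi-21FGAA (adjusted p = 0.029) and 1.01 ± 0.35 in G-NHX9-21FGAA (adjusted p = 0.030), and it was -1.14 ± 0.41 in G-NHX9-midi (adjusted p = 0.026). These calls lay near the threshold. The G-NHX9-DDNA call was lost without its replicate 3 (1.09, adjusted p = 0.0516), the G-NHX9-midi-21FGAA call without its replicate 5 or Empty replicate 2, 4 or 5 (1.00 to 1.11), the G-NHX9-21FGAA call without its replicate 4 or 5 or Empty replicate 2 or 5 (0.68 to 1.01), and the G-NHX9-midi call without its replicate 2, 3 or 5 or Empty replicate 1 (-1.06 to -0.94). With no filter the last 3 of these 4 calls were lost too, and so was the G-NHX9-21FGAA call in a fit of those groups alone. The differences between fusions were larger. G-NHX9-midi-21FGAA exceeded G-NHX9-midi by 2.24 ± 0.38 (adjusted p = 1.3e-05), G-NHX9-DDNA exceeded G-NHX9 by 1.84 ± 0.37 (adjusted p = 0.00034) and G-NHX9-21FGAA exceeded G-NHX9 by 1.59 ± 0.37 (adjusted p = 0.0019), each with no overlap and in every alternative run.

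Markers of several lineages were also low in G-NHX9-8FA and G-NHX9-midi, and some of them in G-NHX9. The summed level of 10 mast cell and basophil genes ranged from 1382 to 3747 CPM in Empty, 780 to 1093 in G-NHX9, 651 to 1015 in G-NHX9-8FA and 523 to 990 in G-NHX9-midi. It ranged from 3531 to 4936 CPM in G-NHX9-21FGAA and 2749 to 4131 in G-NHX9-DDNA. Summed erythroid genes ranged from 245 to 710 CPM in Empty, 28.5 to 79.7 in G-NHX9-8FA, 44.8 to 84.5 in G-NHX9-midi and 384 to 1817 in G-NHX9-21FGAA. In G-NHX9-midi, 8 of 10 mast cell and basophil and 8 of 9 eosinophil genes were lower than in Empty, and 1 eosinophil gene was higher. There, 8 of 8 megakaryocyte and 11 of 12 erythroid genes were lower too, beside 20% of all genes lower. No gene of these lists stood at 3 reads or fewer in every library of a group. Neutrophil genes leaned the other way, 9 of 14 higher and 0 lower than in Empty in G-NHX9-8FA and 6 and 3 in G-NHX9-midi. Their sum ranged from 15440 to 34610 CPM in G-NHX9-8FA, 10420 to 22460 in G-NHX9-midi and 8804 to 13070 in Empty. In G-NHX9, where neither *Epha4* nor *Ephb6* was called against Empty, 6 mast cell and basophil, 5 eosinophil, 5 megakaryocyte and 0 erythroid genes were lower. Of all genes, 15.2% were lower there. The part of these lineages in the receptor differences was not tested.

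*Ephb4*, the receptor for ephrin-B2 that marks veins, was close to absent. It had 0 to 5 reads a library and more than 3 in 1 library, G-NHX9-8FA replicate 4, so it did not pass the filter and no comparison was made. Of the other 7 genes of the receptor family, *Epha1*, *Epha6*, *Epha8*, *Epha10*, *Ephb1* and *Ephb3* did not pass it either, with no more than 17 reads in any library. *Epha5* passed, at 0.333 ± 0.0507 CPM in Empty and 0.0933 ± 0.0580 CPM in G-NHX9 (log2 fold change -1.83 ± 0.47, adjusted p = 0.0031, no overlap), and it did not pass the threshold in the other 5 comparisons with Empty.

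Divided by the combined length of all its annotated exons, each gene's level can be set beside the others. That length need not match the transcript made in these cells. The 14 receptor genes together averaged 0.666 ± 0.0722 CPM per kb in Empty, between 0.808 and 1.13 CPM per kb in the other fusion groups, and 1.91 ± 0.308 CPM per kb in G-NHX9-21FGAA. *Epha3* supplied 4.05% ± 3.73 of that sum in Empty, 30.1% ± 5.44 in G-NHX9, 8.86% ± 0.820 in G-NHX9-midi, 43.6% ± 9.93 in G-NHX9-midi-21FGAA and 65.3% ± 6.41 in G-NHX9-21FGAA (SD, n = 5). *Epha7* supplied 59.2% ± 14.8 in G-NHX9-midi, 36.9% ± 10.2 in G-NHX9-8FA and 4.20% ± 1.98 in G-NHX9-21FGAA. In Empty, *Epha2* was the most abundant receptor at 0.347 ± 0.0329 CPM per kb. By group means the leading receptor transcript was thus *Epha2* in Empty and G-NHX9-DDNA and *Epha7* in G-NHX9-midi and G-NHX9-8FA. It was *Epha3* in G-NHX9 and both 21FGAA groups, although *Epha3* was chosen for its rise in G-NHX9-21FGAA. Single libraries departed from this order. Per kb, *Ephb6* stood above *Epha2* in G-NHX9-DDNA replicates 3 and 4, and *Ephb2* above *Epha3* in G-NHX9 replicate 4.

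**Figure D2:**
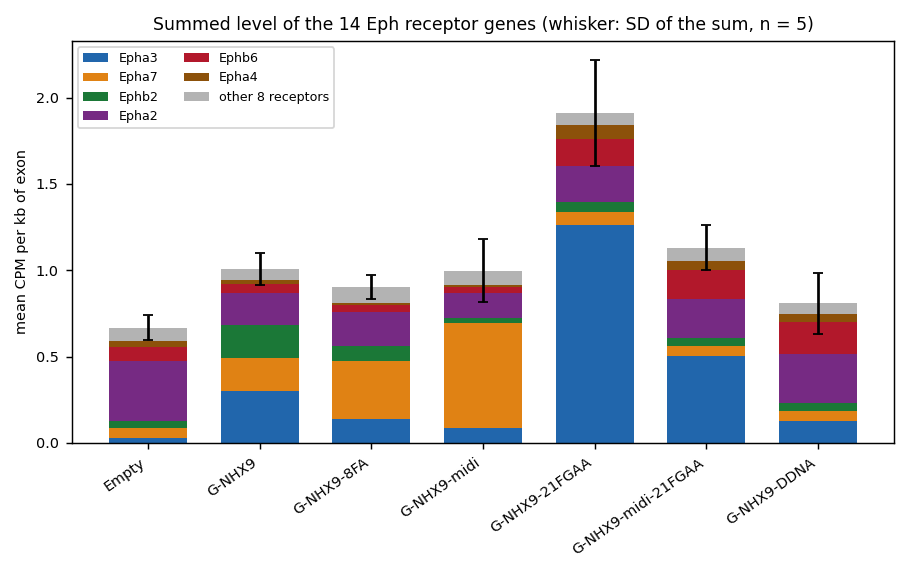
Stacked mean level of the 14 Eph receptor genes per kb of exon (y axis, CPM per kb, linear from 0) in each group (x axis), one color for each of the 6 tested members and gray for the other 8 genes, with the SD of the sum over 5 libraries as whisker. Epha2 is the largest part of the Empty bar, Epha7 59.2% of the G-NHX9-midi bar and Epha3 65.3% of the G-NHX9-21FGAA bar, whose sum of 1.91 CPM per kb is the highest.

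Counts of calls are given over the 5 tested members other than *Epha3*, beside the share of all 17166 genes called in the same comparison. Against Empty, 2 of the 5 were higher and 1 lower in G-NHX9, where 32.1% of all genes were called, 16.9% higher and 15.2% lower. In G-NHX9-8FA 2 were higher and 2 lower, beside 26.6% of all genes (13.4% higher, 13.2% lower). In G-NHX9-midi 1 was higher and 3 lower, beside 40.5% (20.5% higher, 20% lower). Fewer of these 5 members, which leave out *Epha3*, were called in the 21FGAA and DDNA constructs. The share of all genes called was also lower in G-NHX9-midi-21FGAA and G-NHX9-DDNA, while that of G-NHX9-21FGAA was near that of G-NHX9-8FA. In G-NHX9-21FGAA 1 was higher and 1 lower, beside 27.1% (14.7% higher, 12.5% lower). In G-NHX9-midi-21FGAA 1 was higher and 0 lower by edgeR, where *Epha2* had an unadjusted p under 0.05 and DESeq2 called the same number, beside 16.9% (9.59% higher, 7.32% lower). In G-NHX9-DDNA 1 was higher and 0 lower, with no other member at an unadjusted p under 0.05, beside 17.2% (9.85% higher, 7.35% lower). With the replicate block the G-NHX9-midi-21FGAA count was 2, *Ephb6* higher and *Epha2* lower. The G-NHX9-21FGAA count lay between 0 and 2 on leaving out single libraries, down on removal of Empty replicate 1, 2, 4 or 5 or its own replicate 4 or 5. The G-NHX9-8FA count was 1 at lowest, without its replicate 2.

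Groups that do not overlap were counted in the same way. Of the 5 members, 3 did not overlap Empty in G-NHX9, 2 in G-NHX9-8FA, 2 in G-NHX9-midi, 1 in G-NHX9-21FGAA, 2 in G-NHX9-midi-21FGAA and 1 in G-NHX9-DDNA. The shares of all genes without overlap were 20.1%, 17.1%, 27.4%, 16.8%, 11.5% and 12.1% in that order. *Epha2* was among the members without overlap in 5 of the 6 groups, all but G-NHX9-DDNA.

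Against G-NHX9, 0 of the 5 members were higher and 1 lower in G-NHX9-8FA, beside 14.5% of all genes (6.43% higher, 8.04% lower), *Epha7* having an unadjusted p under 0.05 in edgeR. In G-NHX9-midi 1 was higher and 1 lower, beside 19.7% (8.5% higher, 11.2% lower). In G-NHX9-21FGAA 2 were higher and 2 lower, beside 17.2% (8.91% higher, 8.34% lower). The 4 called there were *Epha4* and *Ephb6*, higher, and *Epha7* and *Ephb2*, lower. In G-NHX9-DDNA 1 was higher and 2 lower, beside 22.1% (10.7% higher, 11.4% lower). G-NHX9-midi-21FGAA against G-NHX9-midi gave 2 higher and 1 lower, beside 43.2% (21% higher, 22.2% lower), with *Epha4* and *Ephb6* higher and *Epha7* lower.

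Set against the other variants, G-NHX9-21FGAA had 3 members higher and 1 lower than G-NHX9-midi, beside 36.1% (18% higher, 18.1% lower). Against G-NHX9-8FA it had 2 higher and 1 lower, beside 32.4% (15.3% higher, 17.1% lower). Against G-NHX9-midi-21FGAA it had 0 of 5, beside 3.01% (1.99% higher, 1.03% lower), and against G-NHX9-DDNA 0 of 5, beside 1.04% (0.856% higher, 0.181% lower). In these last comparisons no member other than *Epha3* had an unadjusted p under 0.05 in edgeR, and DESeq2 gave 0 as well. *Epha3*, with no test, was higher there in all 5 G-NHX9-21FGAA libraries, by 1.32 ± 0.32 and 3.27 ± 0.35 on the log2 scale.

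**Figure D3:**
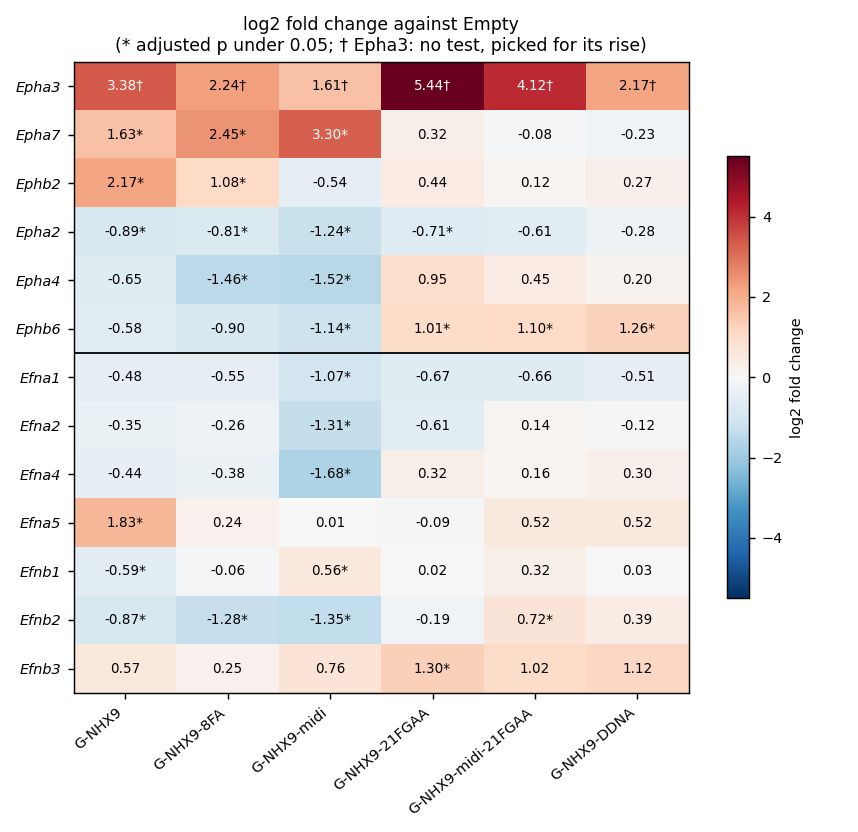
Fitted log2 fold change against Empty (color and printed value) of 6 Eph receptors (upper rows) and 7 ephrins (lower rows) in the 6 fusion groups (columns); an asterisk marks an adjusted p under 0.05 and a dagger Epha3, which has no test. Epha7 is raised in the first 3 columns and Ephb6 in the last 3, with values of -1.24, -1.52 and -1.14 for Epha2, Epha4 and Ephb6 in G-NHX9-midi.

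Because the 21 FG pairs were replaced in both the full-length and the midi construct, the effect of the replacement could be compared between them. For *Epha7* the effect was -1.31 ± 0.31 in full length and -3.38 ± 0.32 in midi, and the difference of 2.07 ± 0.44 passed the threshold (adjusted p = 0.0014). For *Ephb2* it was -1.74 ± 0.32 in full length and 0.66 ± 0.35 in midi, a difference of -2.39 ± 0.48 (adjusted p = 0.00068). Both held in every alternative run. After the replacement, 4 of 5 *Epha7* values in G-NHX9-21FGAA and all 5 in G-NHX9-midi-21FGAA lay within the range of Empty.

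The difference between constructs was -0.37 ± 0.66 for *Epha4*, -0.64 ± 0.54 for *Ephb6* and -0.45 ± 0.39 for *Epha2*, none past the threshold (adjusted p = 0.78, 0.49 and 0.51). Moderate differences between the constructs were not detectable at this spread. For *Epha3*, with no test, the effect was 2.06 ± 0.33 in full length and 2.51 ± 0.35 in midi. This comparison called 2 of the 5 tested members, 1 higher and 1 lower, beside 12.6% of all genes (5.2% higher, 7.43% lower).

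**Figure D4:**
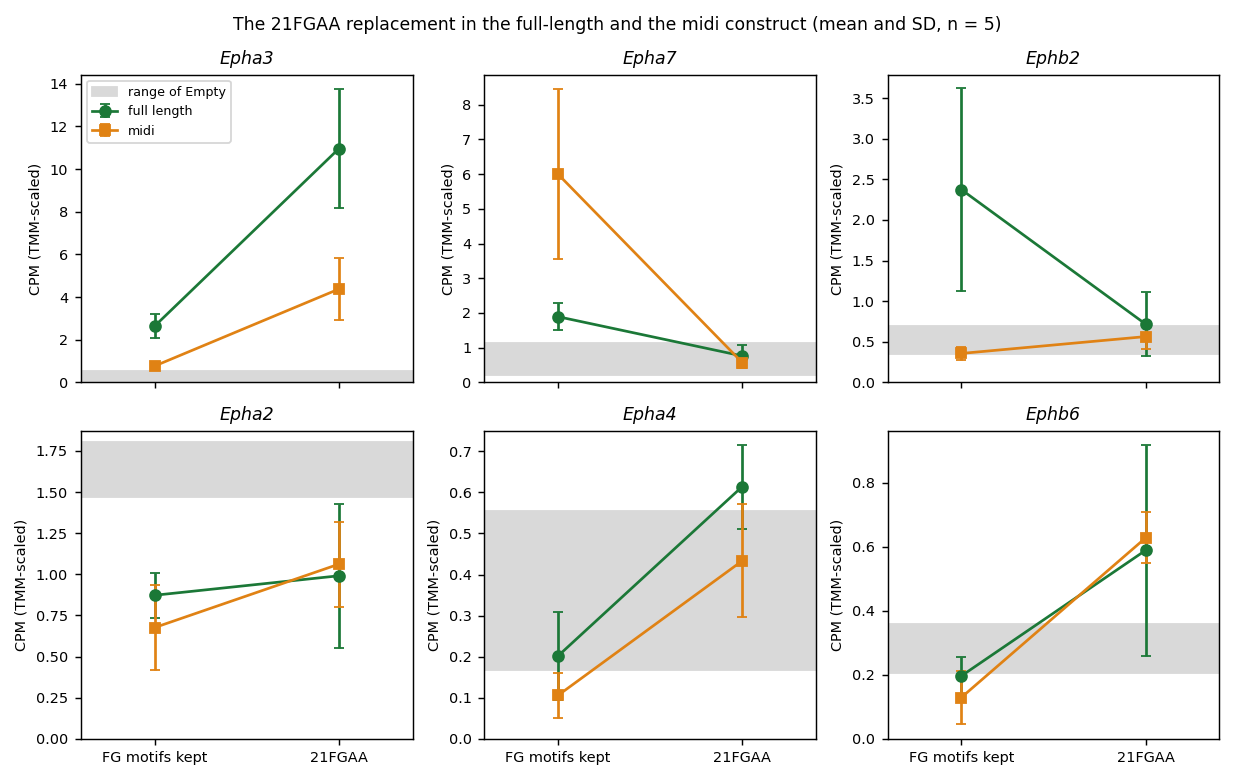
Mean level of 6 Eph receptors (y axis, CPM after TMM scaling, linear from 0) with the FG motifs kept or with 21 FG pairs replaced (x axis), for the full-length (circles) and midi (squares) constructs; whiskers are the SD of 5 libraries and the gray band is the range of the Empty libraries. Epha7 and Ephb2 meet near the Empty band after the replacement, while Epha3, already above it with the FG motifs kept, lies farther above it in both constructs.

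Of the 8 ephrin genes, the ligands, 7 passed the filter and *Efna3* did not, with at most 5 reads a library. *Efnb1* was the most abundant per kb over all libraries at 0.783 CPM per kb, followed by *Efnb2* at 0.163, *Efna1* at 0.149 and *Efna2* at 0.124. The number of ephrins called against Empty was 3 of 7 in G-NHX9, 1 in G-NHX9-8FA, 5 in G-NHX9-midi, 1 in G-NHX9-21FGAA, 1 in G-NHX9-midi-21FGAA and 0 in G-NHX9-DDNA. The shares of all genes called in these comparisons were 32.1%, 26.6%, 40.5%, 27.1%, 16.9% and 17.2%, beside 42.9%, 14.3%, 71.4%, 14.3%, 14.3% and 0% of the 7 ephrins. The count of 0 came from edgeR, by which *Efnb3* alone had an unadjusted p under 0.05 (log2 fold change 1.12, adjusted p = 0.087), and DESeq2 also called 0.

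*Efnb2*, the ligand of *Ephb4* and of *Ephb2*, fell in the 3 groups where *Epha7* rose. Empty libraries read 1.42, 1.01, 1.36, 1.43 and 1.13 CPM, and G-NHX9-midi libraries 0.339, 0.540, 0.573, 0.615 and 0.433 CPM. Its log2 fold change from Empty was -1.35 ± 0.25 in G-NHX9-midi (adjusted p = 5.1e-05), -1.28 ± 0.25 in G-NHX9-8FA (adjusted p = 0.00020) and -0.87 ± 0.24 in G-NHX9 (adjusted p = 0.0062), each with no overlap. In G-NHX9-midi-21FGAA, at 2.21, 1.33, 1.53, 2.23 and 3.12 CPM, it rose by 0.72 ± 0.23 (adjusted p = 0.030). That call was lost without Empty replicate 2 or 5 or G-NHX9-midi-21FGAA replicate 4 or 5 (0.54 to 0.70) and in a fit of those groups alone (0.71, adjusted p = 0.0665). Against G-NHX9-midi, G-NHX9-midi-21FGAA exceeded it by 2.07 ± 0.25 (adjusted p = 2.9e-08), and the effect of the replacement differed between constructs by -1.38 ± 0.34 (adjusted p = 0.0061).

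*Efnb1*, an X-linked ephrin-B ligand, moved less. It was lower than in Empty in G-NHX9 (-0.59 ± 0.18, adjusted p = 0.0093) and higher in G-NHX9-midi (0.56 ± 0.17, adjusted p = 0.0083). Library sizes without TMM gave -0.43 in G-NHX9 (adjusted p = 0.0517), and a fit of those groups alone gave -0.58 (adjusted p = 0.0573). *Efna5*, a ligand of *Epha3* that also binds *Ephb2*, was highest in G-NHX9, at 0.389, 0.402, 0.348, 0.643 and 1.30 CPM, against 0.0960, 0.115, 0, 0.465 and 0.245 CPM in Empty. Its log2 fold change of 1.83 ± 0.65 (adjusted p = 0.030) overlapped Empty in 3 of 5 libraries and was lost without G-NHX9 replicate 5 (1.35, adjusted p = 0.142) or Empty replicate 1, 2 or 3 (1.48 to 1.70), and in a fit of those groups alone (1.85, adjusted p = 0.0548). In G-NHX9-21FGAA, where *Epha3* was highest, *Efna5* read 0.0638, 0.0414, 0.0979, 0.296 and 0.287 CPM and differed from Empty by -0.09 ± 0.72 (adjusted p = 0.94). In G-NHX9-DDNA it differed from G-NHX9 by -1.31 ± 0.61 (adjusted p = 0.13), and by -1.42 ± 0.378 (adjusted p = 0.00493) with the replicate block.

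The ephrin-A genes *Efna1*, *Efna2* and *Efna4* were lower than in Empty in G-NHX9-midi, with log2 fold changes of -1.07 ± 0.31, -1.31 ± 0.36 and -1.68 ± 0.62 (adjusted p = 0.0066, 0.0037 and 0.028), at levels under 25 reads in every library. *Efna5* averaged 0.1755 CPM there and 0.1841 CPM in Empty. *Efna4* reached the filter level of 0.22 CPM in only 5 libraries, and its highest values were 0.199 CPM in Empty and 0.0997 CPM in G-NHX9-midi. The *Efna4* call was lost without Empty replicate 4 or 5 or G-NHX9-midi replicate 3 or 5 (-1.62 to -1.34) and with no filter (-1.68, adjusted p = 0.0597). *Efnb3* rose in G-NHX9-21FGAA (1.30 ± 0.45, adjusted p = 0.029), a call lost without Empty replicate 1, 3 or 4 (1.12 to 1.19) or G-NHX9-21FGAA replicate 5 (1.09, adjusted p = 0.0990) and with no filter (1.33, adjusted p = 0.0639).

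**Figure D5:**
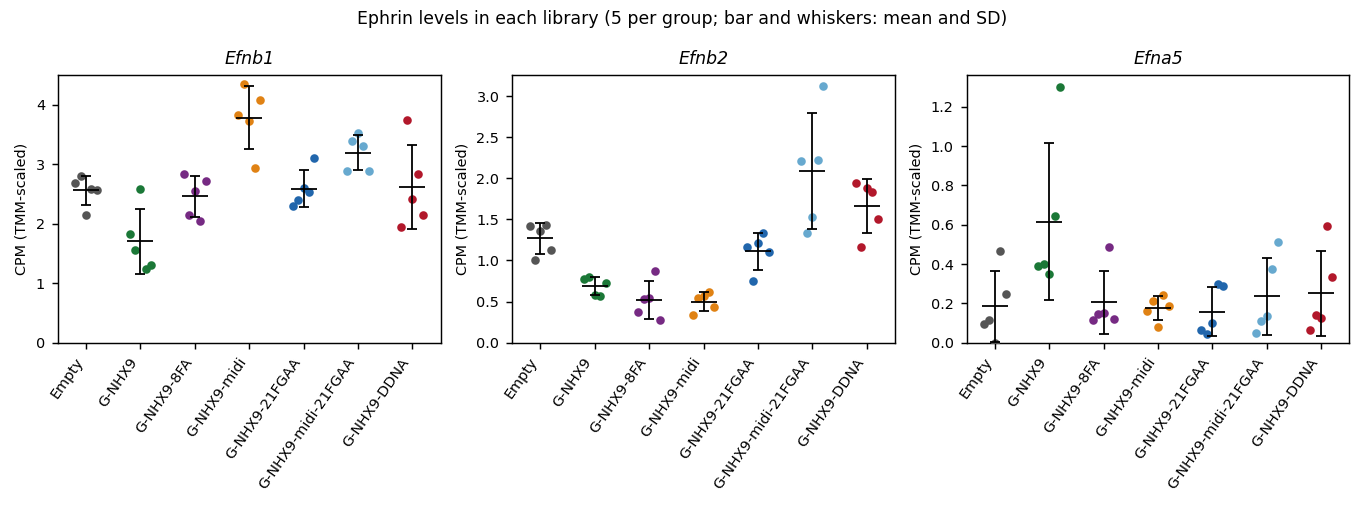
Level of 3 ephrins (y axis, CPM after TMM scaling, linear from 0) in each of 35 libraries (points) by group (x axis), with the mean and SD of 5 libraries as bar and whiskers. All libraries of G-NHX9, G-NHX9-8FA and G-NHX9-midi lie below every Empty library for Efnb2, and the highest Efna5 value, 1.30 CPM, is in G-NHX9.

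Further along the pathway, a list of 36 genes that relay Eph and ephrin signals, 33 of them tested, was counted in the same way. Against Empty, 1 was higher and 10 lower in G-NHX9, 1 and 9 in G-NHX9-8FA, 1 and 13 in G-NHX9-midi, 6 and 7 in G-NHX9-21FGAA, 2 and 3 in G-NHX9-midi-21FGAA and 6 and 5 in G-NHX9-DDNA. As shares of the 33 these were 33.3%, 30.3%, 42.4%, 39.4%, 15.2% and 33.3%, beside 32.1%, 26.6%, 40.5%, 27.1%, 16.9% and 17.2% of all genes, so that the first 3 and the fifth were close in total to the share of all genes. By direction the first 3 leaned to lower, where 16.9%, 13.4% and 20.5% of all genes were higher and 15.2%, 13.2% and 20% lower. Without TMM the counts were 2 higher and 4 lower in G-NHX9, 1 and 9 in G-NHX9-8FA and 2 and 11 in G-NHX9-midi. The list's median log2 fold change ran from -0.27 in G-NHX9-midi to 0.05 in G-NHX9-midi-21FGAA, where the median of all genes was 0.02 and -0.02. The called genes furthest from Empty were in several groups the same. *Vav2*, a guanine nucleotide exchange factor, fell in G-NHX9 (-1.12 ± 0.16, adjusted p = 1.9e-06) and G-NHX9-8FA (-1.22 ± 0.16, adjusted p = 6.9e-07). *Src*, a kinase engaged by activated receptors, fell in G-NHX9-8FA (-1.77 ± 0.28, adjusted p = 1.2e-05) and G-NHX9-midi (-2.14 ± 0.29, adjusted p = 3e-07), and rose in G-NHX9-DDNA (0.80 ± 0.27, adjusted p = 0.037).

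*Ptk2*, the focal adhesion kinase, fell in G-NHX9-midi (-1.57 ± 0.20, adjusted p = 8.9e-08) and rose in G-NHX9-midi-21FGAA (0.66 ± 0.19, adjusted p = 0.014). *Tiam1*, an exchange factor for Rac, rose in G-NHX9-midi-21FGAA (0.56 ± 0.14, adjusted p = 0.0075). *Kalrn*, an exchange factor that acts downstream of EphB2, rose in G-NHX9-21FGAA (1.63 ± 0.27, adjusted p = 4.6e-05) and G-NHX9-DDNA (1.04 ± 0.26, adjusted p = 0.0068). *Sipa1l1*, a GTPase-activating protein for Rap, rose in G-NHX9 (0.90 ± 0.24, adjusted p = 0.0037) and G-NHX9-21FGAA (0.97 ± 0.24, adjusted p = 0.0027). *Rhoa* itself averaged 463 ± 47.4 CPM in Empty and 332 ± 26.8 CPM in G-NHX9-21FGAA. The level was similar in G-NHX9 (353 ± 32.9 CPM), G-NHX9-midi-21FGAA (345 ± 24.6) and G-NHX9-DDNA (354 ± 36.3). G-NHX9-8FA and G-NHX9-midi averaged 409 ± 9.84 and 407 ± 25.9 CPM.

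The genes whose log2 CPM was most alike to that of *Epha3* over the 35 libraries were *Cd34* (Pearson's r = 0.85), the neurofilament gene *Nefh* (0.84), the dynein adaptor gene *Bicd1* (0.84), *Plscr1* (0.83) and the chemokine receptor gene *Cx3cr1* (0.82). The most opposite were *Tnfrsf1a* (-0.83), *Rab7* (-0.83), *Cdip1* (-0.80), *Rhoa* (-0.79) and *Ppp1r18* (-0.78). The points share their libraries and depth and fall into the 7 groups that set most of the spread, so these values describe likeness only. *Bicd1* averaged 4.69 ± 0.350 CPM in Empty and 17.4 ± 2.18 CPM in G-NHX9-21FGAA, its highest group, whereas *Cd34* was about as high in G-NHX9 as in G-NHX9-21FGAA.

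*Epha7* was most alike to *Rassf6* and *Pde7a* (r = 0.95 each). *Rassf6* averaged 1.87 ± 0.280 CPM in Empty, 12.5 ± 2.90 in G-NHX9-midi and 1.53 ± 0.395 in G-NHX9-midi-21FGAA. *Ephb6* was most alike to *1810011H11Rik* (0.93) and the carbonic anhydrase-related gene *Car8* (0.91), *Ephb2* to *Rasgrp1* (0.85) and *1700025G04Rik* (0.84), *Epha2* to *Tob1* (0.84) and *Zcchc24* (0.83), and *Epha4* to *Tmem246* (0.81) and *Muc6* (0.80). Among the receptors themselves, over all libraries, *Epha7* ran opposite to *Ephb6* (r = -0.79) and *Epha4* (-0.69). Within groups, where each library was taken as its deviation from the group mean, these values were -0.28 and -0.13.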

How the data were processed

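Total RNA of the 35 libraries was prepared with a stranded total-RNA kit and read as pairs. The authors' processing notes name STAR 2.7.0d, HTSeq 0.11.2 and DESeq2 with build mm10, and the deposited values were whole-number read counts per gene, not normalized. Groups were taken from the sample titles. The members, gene lists and tests were chosen with earlier results of these data known.

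Here, counts were analyzed with edgeR 4.0.16 in R 4.3.3: genes were kept by filterByExpr (10 reads in the library of median size, in as many libraries as a group holds), libraries were scaled by TMM (factors 0.899 to 1.11), and 1 quasi-likelihood model over 7 groups gave 15 comparisons and the construct-by-replacement difference, adjusted by Benjamini-Hochberg over 17166 genes. Likeness to a member was Pearson's r of log2 CPM (prior count 2), searched among genes averaging 1 CPM or more. Genes were named by rule: the receptors, the ephrins, the 2 signaling genes furthest from Empty in each comparison, the 5 most and 5 least alike to *Epha3* and the 2 most alike to each other member.

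Counts of 31559914 to 75810659 per library limit precision for genes of few reads. On simulated counts with known changes in G-NHX9-21FGAA against Empty (16897 genes), the test recovered 56% of 2-fold and 91% of 4-fold changes and called 5 unchanged genes. The changed genes were drawn at random from all tested genes, the rest held no change, and libraries were drawn independently. These shares therefore need not hold for receptors and ephrins of few reads. No libraries of a group agreed within sampling noise (lowest chi-square per degree of freedom 22.53 over 70 pairs). Same-numbered libraries deviated together (mean r = 0.232, against -0.057 for other numbers), with every pair over 0.1 in 6 of 15 comparisons, so the number was also fitted as a block. The alternatives comprised RLE factors, unscaled library sizes, no filter, a mean of at least 1 CPM, the block, only the groups compared, DESeq2 1.42.0 and leaving out each library. Gene positions came from GENCODE on GRCm38 and promoter windows from RefSeq GRCm38.p6. No protein sequences were used.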

Additional observations from a re-analysis of the deposited data

Results flagged for a closer look

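Single libraries stood far from the other 4 of their group by Dixon's test in 7 of the 91 combinations of 13 tested genes and 7 groups (gap over range above 0.71), where chance gives about 1 in 20. High values were *Epha2* in G-NHX9-DDNA replicate 1 (2.07 CPM, nearest 1.24), *Ephb2* in G-NHX9-21FGAA replicate 5 (1.41 CPM, nearest 0.638), *Efna1* in G-NHX9 replicate 4 (0.445 CPM, nearest 0.275), and *Efna2* and *Efna5* in G-NHX9-8FA replicate 4 (0.334 and 0.488 CPM, nearest 0.259 and 0.151). Low values were *Epha4* in G-NHX9-21FGAA replicate 4 (0.437 CPM, nearest 0.626) and in G-NHX9-midi-21FGAA replicate 3 (0.196 CPM, nearest 0.471). These values rest on 10 to 100 reads.

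The effect of replacing 21 FG pairs differed between the full-length and midi constructs, by the tested interaction, for *Epha7* (2.07 on the log2 scale), *Ephb2* (-2.39), *Efna2* (-1.71, adjusted p = 0.017), *Efnb1* (0.85, adjusted p = 0.017) and *Efnb2* (-1.38).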

How the results depend on the processing

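No value changed direction past the threshold under any alternative. Counts of called genes moved by more than 1.5 times as follows. Without TMM, which shifted the median of all genes by up to 0.19 on the log2 scale, signaling genes went from 11 to 6 in G-NHX9 and from 5 to 9 in G-NHX9-midi-21FGAA, and ephrins from 1 to 2 in the latter, all against Empty. With no filter on low counts, signaling genes in G-NHX9 numbered 7, and against Empty the members and ephrins in G-NHX9-21FGAA and the members in G-NHX9-midi-21FGAA numbered 0. With a mean of at least 1 CPM, which left 2 testable members other than *Epha3*, the members called against Empty were 2 in G-NHX9-8FA, 2 in G-NHX9-midi, 1 in G-NHX9-21FGAA and 0 in G-NHX9-midi-21FGAA and G-NHX9-DDNA; ephrins were 2 in G-NHX9-midi and 0 in G-NHX9-21FGAA; members were 0 in G-NHX9-8FA and 1 each in G-NHX9-midi, G-NHX9-21FGAA and G-NHX9-DDNA against G-NHX9, 1 each in G-NHX9-midi-21FGAA and G-NHX9-21FGAA against G-NHX9-midi, 1 in G-NHX9-21FGAA against G-NHX9-8FA, and 1 in the construct-by-replacement difference. With the replicate block, signaling genes in G-NHX9-midi against Empty numbered 22, members in G-NHX9-midi-21FGAA against Empty 2 and in G-NHX9-8FA against G-NHX9 2, the last adding *Epha7* (0.84, adjusted p = 0.0302); no pairing was established for G-NHX9-midi against Empty or G-NHX9-8FA against G-NHX9. The block changed no other count of calls past that limit. In fits of only the groups compared, ephrins against Empty were 1 in G-NHX9, 3 in G-NHX9-midi and 0 in G-NHX9-21FGAA and G-NHX9-midi-21FGAA, and members were 1 in G-NHX9-21FGAA against Empty and 0 in G-NHX9-8FA against G-NHX9. DESeq2 gave 2 for the last. The causes were not tested.

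Leaving out each library in turn gave, for members against Empty, 3 in G-NHX9, 1 to 4 in G-NHX9-8FA, 3 to 4 in G-NHX9-midi, 0 to 2 in G-NHX9-21FGAA and 0 to 1 in G-NHX9-midi-21FGAA and G-NHX9-DDNA; 0 to 2 for G-NHX9-8FA against G-NHX9, where G-NHX9 replicate 4 and G-NHX9-8FA replicates 1, 2 and 4 moved the count; for ephrins against Empty, 0 to 2 in G-NHX9-21FGAA and 0 to 1 in G-NHX9-midi-21FGAA and G-NHX9-DDNA; and for signaling genes 7 to 12 in G-NHX9-DDNA (lowest without Empty replicate 2) and 3 to 7 in G-NHX9-midi-21FGAA. Depth limits *Epha4*, *Ephb6* and the ephrins other than *Efnb1* and *Efnb2* most.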
